A study of Mus musculus with 10 samples.

Results

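The 10 genes described here encode fibronectin (Fn1) and proteins of the extracellular matrix that act mainly on cells: periostin (Postn), SPARC (Sparc), osteopontin (Spp1), tenascin-C (Tnc), thrombospondin-1 (Thbs1), the CCN proteins CCN1 and CCN2 (Ccn1, Ccn2), lumican (Lum) and decorin (Dcn). They were taken by symbol, 10 of the 28185 genes of the deposited table, and all 10 passed the filter of the test, a mean of 10 or more normalized counts, as 11549 genes did. The genes were chosen with their measured values in these libraries already known, Fn1 by its level in blood after MSC treatment, so the tests below are not independent evidence and Fn1 in comparisons with Blood + MSC is described without a test. The libraries are RNA-seq of Ly6G+ cells, taken with anti-Ly6G magnetic beads from male C57Bl/6J mice of 12 to 16 weeks whose left coronary artery had been tied off, at day 3. MI libraries (n = 3) come from digested left ventricle below the ligature and Blood libraries (n = 2) from blood, both without mesenchymal stromal cell (MSC) treatment, while MI + MSC (n = 3) and Blood + MSC (n = 2) come from mice that received syngeneic bone marrow MSC under the skin at 3 sites, with 1000000 cells at each. Every mouse had an infarct, and no library of uninjured animals was analysed here.

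Matricellular proteins are secreted into the matrix but do more to instruct cells through integrins, syndecans, CD44 and CD47 than to bear load. In the healing heart they appear soon after infarction, mostly from fibroblasts, vascular cells and macrophages, and they modulate adhesion, growth factor activity and scar assembly. Neutrophils carry the receptors and respond to these proteins. Fibronectin is the adhesive glycoprotein of the provisional matrix, in a plasma and a cellular form.

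Between 148594 (MI 13) and 8602711 (Blood + MSC 24) reads on genes stood behind a library, and the 10 genes together had from 596 reads (Blood 21) to 41523 (Blood + MSC 24). The values are normalized counts, the read count of a gene divided by the size factor of its library. Taking 3 reads as a floor, MI 13 could not resolve values under 25.2 normalized counts, nor Blood 21 values under 21.2, while the remaining floors ran from 0.505 to 6.89. MI 13 and Blood 21 were therefore the least precise, and Blood 21 also stood apart in its platelet genes. The entry named batch in the labels repeats the group, so batch and group cannot be told apart. Summed over 12 neutrophil genes, the libraries held 2572 to 13867 normalized counts in the heart and 16855 to 52823 in blood. All 8 endothelial, 8 heart muscle and 8 mural genes tested had a log2 fold change above 0 in MI against Blood, with 7, 8 and 7 of them called higher. Over all tested genes, 21.2% were called higher there. Genes such as Kdr, Rgs5 and Myh6 averaged 0.975, 0.325 and 0.325 normalized counts in Blood and passed the filter only through the heart libraries. The counts of these cardiac lists are therefore a description.

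The 10 genes made up 0.678% to 0.848% of all normalized counts in MI, and 0.656% to 1.03% after MSC. Their share was 0.0961% and 0.222% in Blood, and with MSC it was 0.226% and 0.483%. Spp1 alone gave 57.2% to 61.7% of that sum in MI + MSC and 29.4% to 55.0% in MI. Fn1 gave 72.0% and 85.0% of it in Blood + MSC, against 26.5% and 57.6% in Blood. In Blood 21, Thbs1 took the largest share, 50.2%, whereas it took 7.74% in Blood 22.

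**Figure D1:**
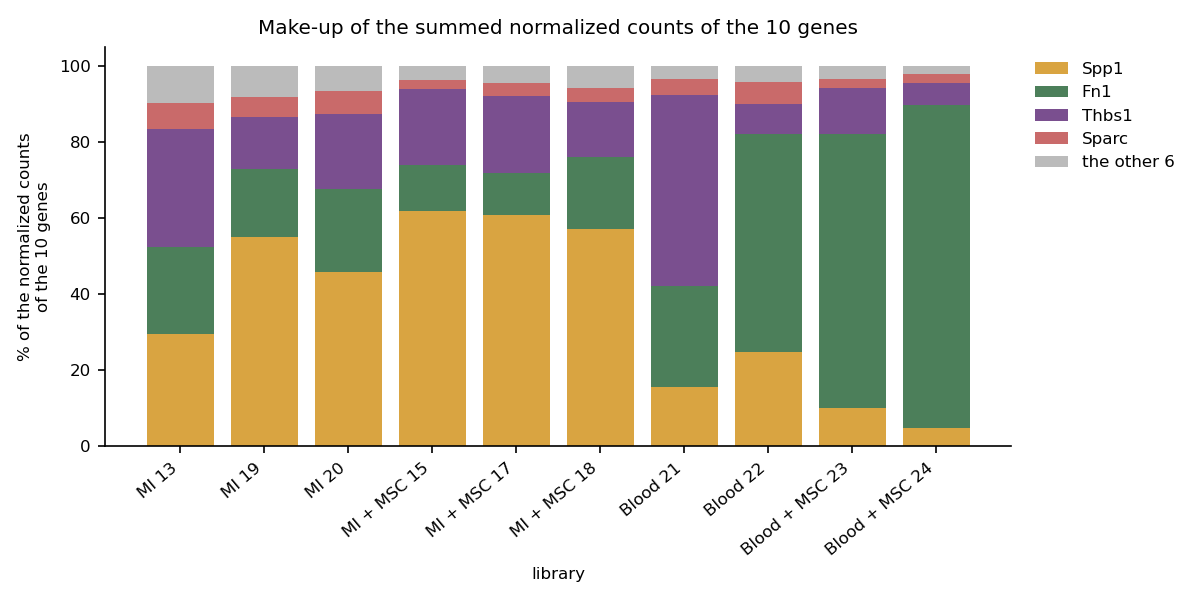
Bars split the summed normalized counts of the 10 genes in each library (y axis, percent) by gene, with 1 bar per library on the x axis. Spp1 is the widest band in 5 of the 6 cardiac libraries, Fn1 in Blood 22 and both Blood + MSC libraries, and Thbs1 in MI 13 and Blood 21.

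Levels can be compared between genes per kb of the canonical transcript. In MI, Spp1 stood first with 1962 ± 733 normalized counts per kb (SD, n = 3), followed by Thbs1 with 333 ± 107, Sparc with 260 ± 41.3 and Fn1 with 246 ± 49.4. The ranges of these last 3 genes overlapped, so their order in MI is not beyond the spread. The other 6 genes lay between 23.2 (Lum) and 46.5 (Ccn2) per kb on average. In Blood + MSC, Fn1 was first with 515 ± 271 per kb (n = 2), ahead of Spp1 with 157 ± 17.6, Thbs1 with 70.3 ± 5.06 and Sparc with 55.7 ± 23.6. Tnc was last there, with 0.253 per kb.

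Groups were compared with limma on log2(normalized count + 2), fitted to all 10 libraries and all tested genes. A call needed a log2 fold change of 0.5 or more in size and a p-value under 0.05 after Benjamini-Hochberg adjustment. Log2 fold changes are on this scale, on which changes of low genes depend on the value added. The first comparison asked how Ly6G+ cells of the infarct differ from those of blood without MSC. Of the 10 genes, 8 rose in MI against Blood and none fell, where 21.2% of all tested genes were called higher and 13.5% lower. That is 2452 genes higher and 1556 lower, and 3991 and 819 with library size scaling. The median log2 fold change of the 10 genes was 3.05, against 0.15 over all tested genes. Postn, Tnc, Ccn1, Ccn2 and Lum averaged 0.325 to 4.87 normalized counts in Blood and passed the filter only through the heart libraries. The filter thus admitted them by values that this comparison tests. The count, the median and the p-values of these genes are given as a description. The same 8 genes were called without MI 13, and Thbs1 as a ninth without Blood 21. In these bulk libraries, more cells that make an RNA and more of that RNA per cell cannot be told apart. Marker genes of several cell types moved in the same contrast, and their part in the 10 genes was not tested: beside the cardiac lists above, 3 of 8 fibroblast genes rose and 1 fell, 1 of 10 macrophage and 1 of 8 monocyte genes rose, 10 of 12 neutrophil and 7 of 8 platelet genes fell, and 0 of 4 lymphocyte genes were called.

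**Figure D2:**
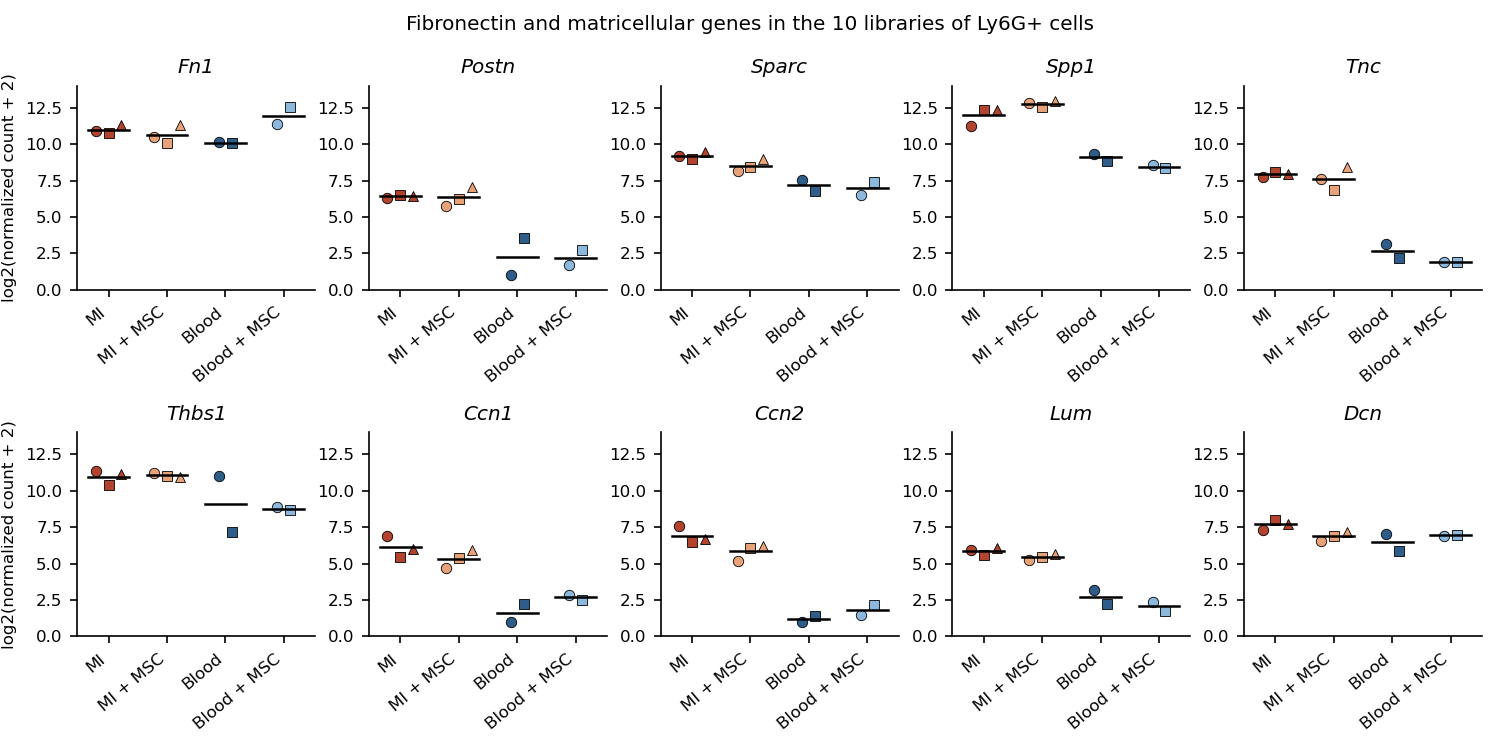
Points show log2(normalized count + 2) (y axis) of each gene in each library, by group (x axis, with symbols only separating the libraries of a group), and bars are group means. Tnc, Ccn1, Ccn2, Lum and Postn are far lower in all 4 blood libraries than in the 6 cardiac ones, whereas Fn1 is highest in Blood + MSC and Thbs1 is split between the 2 Blood libraries.

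Fn1 (ENSMUSG00000026193, GRCm39 chr1:71624673-71692419, minus strand) held 1950, 1723 and 2528 normalized counts in MI 13, 19 and 20, against 1448, 1100 and 2607 in MI + MSC 15, 17 and 18. It held 1116 in Blood 21 and 1063 in Blood 22, against 2714 in Blood + MSC 23 and 5942 in Blood + MSC 24. Both Blood + MSC libraries were above every other library, Blood 22 was the lowest of all, and Blood 21 exceeded it and MI + MSC 17 alone. The mean was 4328 ± 2282 (SD, n = 2) in Blood + MSC and 1090 ± 37.8 in Blood, a ratio of 3.97 and a log2 fold change of 1.88. These values rest on 158 to 35313 reads, so counting error is small beside the 2.19-fold gap between the 2 Blood + MSC libraries. With Blood + MSC 24 left out the log2 fold change was 1.32, and with Blood + MSC 23 left out it was 2.45.

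In the heart, Fn1 did not differ between the MSC groups beyond the spread, with a log2 fold change of -0.34 in MI + MSC against MI (95% interval -1.35 to 0.66, limma adjusted p = 0.807). In MI against Blood, all 3 MI libraries lay above both Blood libraries, with a log2 fold change of 0.90 (SE 0.51, adjusted p = 0.186). Of 21 alternatives, only limma with library size scaling called this difference (1.43, adjusted p = 0.0445). The direction was the other way in MI + MSC against Blood + MSC, at -1.32. It was -0.76 without Blood + MSC 24 and -1.89 without Blood + MSC 23, and since Blood + MSC chose Fn1, no test is given. The order of the group means was thus Blood + MSC, MI, MI + MSC and Blood, in which MI overlapped with MI + MSC, and MI + MSC with Blood.

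The level of Fn1 in blood is listed beside other features of the blood libraries, whose part in it was not tested. The 12 neutrophil genes summed to 46017 and 52823 normalized counts without MSC, against 23998 and 16855 with MSC. The 8 monocyte genes, which mark cells that can make fibronectin, summed to 2367 to 3403 in Blood, against 2514 to 3119 in Blood + MSC, and the 10 macrophage genes to 5789 to 7800 and 5113 to 6586. The 10 fibroblast genes summed to 1590 to 1713 in Blood, against 1158 to 1180 in Blood + MSC, and the marker Pdgfra held 6.50 to 56.5 in Blood, against 15.2 to 45.9 in Blood + MSC. Tcf21, low in every library, was at 0 in both Blood libraries. All 8 platelet genes had a log2 fold change below 0 in Blood + MSC against Blood (median -3.81, none called), with sums of 28050 and 1165 in Blood, and the 9 endothelial genes summed to 615 and 76.7 in Blood, where Blood + MSC held 39.9 and 48.5. The monocyte and macrophage sums thus overlapped, and the fibroblast sum was lower in Blood + MSC. Pi16 gave 657 and 1249 of that sum in Blood, and the other 9 genes summed to 933 and 464, which overlaps with 389 and 722 in Blood + MSC. Within the lists the genes were mixed, as 4 of 8 monocyte and 4 of 10 macrophage genes had a log2 fold change above 0. Csf1r averaged 711 in Blood and 1034 in Blood + MSC, and F13a1 averaged 731 and 562. The part of these cells in the Fn1 level was not tested.

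Spp1 (ENSMUSG00000029304, chr5:104582165-104589235, plus strand), a cytokine-like matrix protein also made by activated macrophages, had the highest mean of the 10 genes in MI and in MI + MSC. It held 2488, 5333 and 5302 normalized counts in MI, against 7322, 6107 and 7884 in MI + MSC. In Blood it held 657 and 455, and in Blood + MSC 378 and 323. Every MI + MSC library was above every MI library, and every Blood + MSC library below both Blood libraries. Spp1 rose in MI against Blood, with a log2 fold change of 2.91 (SE 0.47, adjusted p = 0.00131). It also rose in MI + MSC against Blood + MSC, by 4.33 (SE 0.47, adjusted p = 0.000378), a 20.3-fold ratio of means.

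The log2 fold change of Spp1 in MI + MSC against MI was 0.77 (SE 0.42, 95% interval -0.15 to 1.70), with an adjusted p of 0.647. It was 0.41 without MI 13, the shallowest library and the one with the lowest Spp1. The 10 macrophage genes summed to 2378 (MI 13), 6244 and 6987 in MI, against 10647, 5958 and 11482 in MI + MSC, and 9 of these 10 had a log2 fold change above 0 with none called. MI 13 was lowest both in this sum and in Spp1, and the part of macrophage genes in the Spp1 values was not tested.

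Thbs1 (ENSMUSG00000040152, chr2:117941974-117957616, plus strand) encodes thrombospondin-1, an activator of latent TGF-beta that is stored in platelet granules. It held 2614, 1329 and 2275 normalized counts in MI, and the MI + MSC libraries held 2370, 2030 and 1992. In Blood 21 it held 2113, but in Blood 22 only 143, and in Blood + MSC it held 460 and 416. The 2 Blood libraries thus differed 14.8-fold, with 299 and 220 reads behind them, and Blood 21 fell inside the cardiac range. The platelet list of 8 genes reached a sum of 28050 in Blood 21, with 1165 in Blood 22 and 716 and 608 in Blood + MSC. In the heart the sum was 471 to 648 in MI and 838 to 1760 in MI + MSC. Itgb3, the integrin subunit abundant on platelets, held 1187 in Blood 21 and 46.8 in Blood 22. Within Blood, Thbs1 was high in the library with high platelet genes, and the part of platelets in its level was not tested.

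Each test of Thbs1 against Blood depended on which Blood library was kept. In MI against Blood the log2 fold change was 1.85 (SE 0.83, adjusted p = 0.104), 3.78 without Blood 21 (adjusted p = 0.000762) and -0.08 without Blood 22 (adjusted p = 0.915). In Blood + MSC against Blood it was -0.33 (adjusted p = 0.958), 1.60 without Blood 21 (adjusted p = 1) and -2.27 without Blood 22, where it was called (adjusted p = 0.0262). Without Blood 21, 15.7% of all tested genes were called higher in MI against Blood, and without Blood 22, 3.4% were called lower in Blood + MSC against Blood. A Blood group of 1 library was then assumed to vary like the other groups. With every library kept, Thbs1 in MI against Blood was called by limma with library size scaling (2.37, adjusted p = 0.0366). It was not called in edgeR (0.71), in DESeq2 on all libraries (0.88) or in voom (0.66). MI + MSC against Blood + MSC gave 2.27 (SE 0.83, adjusted p = 0.0894) with all MI + MSC libraries above both Blood + MSC libraries. The Blood libraries enter this test through the pooled spread, and without Blood 21 or Blood 22 the difference was called (adjusted p = 0.00317 and 0.0046), as 12.9% and 13% of all tested genes then were in that direction. It was also called by voom (adjusted p = 0.0157) and, fitted to both groups alone, by limma (0.0009) and DESeq2 (1.65e-06), while the other 16 of 21 alternatives, among them edgeR, DESeq2 on all libraries and both other scalings, did not call it. In the heart, MSC and no MSC did not differ beyond the spread (0.09, 95% interval -1.54 to 1.73).

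Sparc (ENSMUSG00000018593, chr11:55285317-55314067, minus strand), a collagen-binding protein needed for collagen assembly in scars and also carried by platelets, held 597, 506 and 696 normalized counts in MI, compared with 287, 342 and 515 in MI + MSC. The Blood libraries held 184 and 110, and the Blood + MSC libraries 90.1 and 167. Every cardiac library was above every blood library. It rose by 2.05 in MI against Blood (SE 0.38, adjusted p = 0.00258) and by 1.58 in MI + MSC against Blood + MSC (SE 0.38, adjusted p = 0.0189), and the second call was lost with TMM scaling (0.96, adjusted p = 0.282), in edgeR (1.25, adjusted p = 0.0518), without MI + MSC 18 (1.34, adjusted p = 0.0758) and without Blood + MSC 23 (1.14, adjusted p = 0.27). The MSC difference in the heart was -0.68 (95% interval -1.42 to 0.06, adjusted p = 0.635), and the groups overlapped.

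Tnc and Postn are made by activated fibroblasts at wound edges. Both passed the filter only through the heart libraries, so their p-values against blood are a description. Tnc (ENSMUSG00000028364, chr4:63878014-63965443, minus strand) held 210, 274 and 249 normalized counts in MI, against 194, 115 and 341 in MI + MSC. The Blood libraries held 7.07 and 2.60 (1 and 4 reads), the Blood + MSC libraries 1.84 and 1.85 (7 and 11 reads). It rose by 5.25 in MI against Blood (SE 0.45, adjusted p = 2.57e-05) and by 5.69 in MI + MSC against Blood + MSC (SE 0.45, adjusted p = 6e-05). Postn (ENSMUSG00000027750, chr3:54268501-54298471, plus strand) held 75.6, 90.4 and 85.4 in MI, compared with 51.4, 73.5 and 133 after MSC. In blood it held 0 and 9.75 (Blood, 0 and 15 reads) and 1.31 and 4.54 (Blood + MSC). It rose by 4.14 in MI against Blood (SE 0.67, adjusted p = 0.00129) and by 4.13 in MI + MSC against Blood + MSC (SE 0.67, adjusted p = 0.00289). The first of these was not called by voom (adjusted p = 0.0855), and the second was not called without Blood + MSC 23 (adjusted p = 0.0533). In MI against Blood, Postn was 2.87 without Blood 21, where it had 0 reads, 5.42 without Blood 22 and 2.74 with a pseudocount of 10. For both Tnc and Postn, MI + MSC spanned the whole MI range. Their log2 fold changes in MI + MSC against MI were -0.30 (95% interval -1.18 to 0.58) and -0.07 (-1.38 to 1.25).

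Ccn1 and Ccn2 encode immediate early secreted proteins, and both are classic targets of YAP and TEAD factors and, for Ccn2, of TGF-beta signalling. The 250 bases before the canonical start of each gene in the GENCODE annotation of GRCm39 were searched for 9 of the 10 genes, and they are printed for the 3 of these that hold the TEAD core GGAATG on either strand, which are Ccn1, Dcn and Spp1. Capitals mark the TEAD core (GGAATG, or CATTCC where it is on the other strand) and the SMAD core (CAGAC, or GTCTG), and no TEAD match overlaps a SMAD match. The windows are chr3:145355739-145355988 (minus strand) for Ccn1, chr10:97315025-97315274 (plus) for Dcn and chr5:104581915-104582164 (plus) for Spp1.
Ccn1: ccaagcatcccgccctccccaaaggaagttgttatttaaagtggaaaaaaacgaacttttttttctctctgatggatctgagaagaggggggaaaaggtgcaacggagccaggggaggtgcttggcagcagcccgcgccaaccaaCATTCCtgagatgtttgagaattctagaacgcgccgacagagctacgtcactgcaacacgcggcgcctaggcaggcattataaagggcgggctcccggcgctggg
Dcn: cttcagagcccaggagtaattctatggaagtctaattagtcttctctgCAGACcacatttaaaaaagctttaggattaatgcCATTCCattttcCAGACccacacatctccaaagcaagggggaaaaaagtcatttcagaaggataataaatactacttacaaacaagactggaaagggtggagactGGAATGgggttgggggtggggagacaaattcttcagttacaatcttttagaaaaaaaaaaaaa
Spp1: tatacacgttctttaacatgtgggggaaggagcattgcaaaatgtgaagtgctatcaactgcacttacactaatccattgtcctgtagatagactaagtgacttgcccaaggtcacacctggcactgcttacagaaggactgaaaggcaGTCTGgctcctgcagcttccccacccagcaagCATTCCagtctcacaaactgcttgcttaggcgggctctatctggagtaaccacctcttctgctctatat
The TEAD core was in 12.1% of the same windows of 17888 coding genes. Ccn1 held 1 copy, with its first base 105 bases upstream. Dcn held 2, at 63 and 168, and Spp1 held 1, at 69. The SMAD core, a short motif found in 41.6% of all windows, was in 6 of the 9 genes. The AP-1 motif (TGACTCA or TGAGTCA, 3.73% of windows) was in Thbs1 alone, with 2 copies, 1 of which overlapped a SMAD core. The CArG box (1.25% of windows) matched none of the 9. These are matches of letters and say nothing of binding.

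Ccn2 (ENSMUSG00000019997, chr10:24471333-24474900, plus strand) held 193, 87.5 and 99.9 normalized counts in MI, against 33.8, 66.6 and 73.2 in MI + MSC. Every MI + MSC library was below every MI library. It was next to absent from blood, with 0 and 1 read in Blood and 3 and 14 reads in Blood + MSC, which are 0.788 and 2.36 normalized counts. Since neither Blood library exceeded 3 reads, the fold is a lower bound: Ccn2 was at least 11-fold higher in MI than in Blood (limma adjusted p = 3.1e-05). It also rose in MI + MSC against Blood + MSC, by 4.03 (SE 0.50, adjusted p = 0.000744). Ccn2 passed the filter only through the heart libraries, so both p-values against blood are a description. Between the MSC groups of the heart the log2 fold change was -1.09 (SE 0.45, 95% interval -2.07 to -0.11), a mean of 57.9 ± 21.1 against 127 ± 57.9 (SD, n = 3 each). Its unadjusted p was 0.0325 and its adjusted p 0.611, so it was not called. Without MI 13, in which Ccn2 had 23 reads, it was -0.75, and both remaining MI libraries were still above all MI + MSC libraries.

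Ccn1 (ENSMUSG00000028195, chr3:145352720-145355738, minus strand) held 118, 42.3 and 63.3 normalized counts in MI, of which the first rests on 14 reads, and 23.7, 39.0 and 57.6 in MI + MSC. Blood held 0 and 2.60 (0 and 4 reads), and Blood + MSC held 5.25 and 3.70 (20 and 22 reads). Ccn1 passed the filter only through the heart libraries, so its p-values against blood are a description. It rose by 4.53 in MI against Blood (SE 0.57, adjusted p = 0.0003) and by 2.63 in MI + MSC against Blood + MSC (SE 0.57, adjusted p = 0.0124). The first call was missed by voom (adjusted p = 0.0542), and the second was lost when MI + MSC 18, Blood + MSC 23 or Blood + MSC 24 was left out (adjusted p between 0.0619 and 0.0945). The difference of MI + MSC from MI was -0.82 (95% interval -1.94 to 0.30, adjusted p = 0.662), with overlapping groups.

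Lum and Dcn are small leucine-rich proteoglycans that bind collagen fibrils, and decorin also binds TGF-beta. They lie near each other on chromosome 10. Lum (ENSMUSG00000036446, chr10:97400990-97408577, plus strand) held 58.8, 47.1 and 65.4 normalized counts in MI, compared with 35.8, 41.3 and 49.5 in MI + MSC. The Blood libraries held 7.07 and 2.60 (1 and 4 reads), against 3.15 and 1.35 with MSC. Lum passed the filter only through the heart libraries, so its p-values against blood are a description. It rose by 3.18 in MI against Blood (SE 0.44, adjusted p = 0.000572) and by 3.40 in MI + MSC against Blood + MSC (SE 0.44, adjusted p = 0.000986). With MSC against without MSC in the heart it was -0.42 (95% interval -1.29 to 0.45).

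Dcn (ENSMUSG00000019929, chr10:97315275-97358155, plus strand) did not share this pattern in blood. It held 160, 257 and 212 normalized counts in MI, and 93.3, 117 and 140 after MSC. In blood the values were 127 and 57.2 without MSC, against 116 and 126 with it. The blood values rest on 18, 88, 440 and 746 reads, and the Blood + MSC libraries lay within the MI + MSC range. Dcn rose by 1.25 in MI against Blood (SE 0.36, adjusted p = 0.022), a call that was lost in 7 of the 21 alternatives, among them TMM scaling (adjusted p = 0.211), edgeR (0.0562) and leaving out Blood 22 (0.158) or MI 19 (0.0665). Against Blood + MSC, MI + MSC stood at -0.06 (95% interval -0.86 to 0.73). For MI + MSC against MI the value was -0.82 (SE 0.32, 95% interval -1.53 to -0.11, unadjusted p = 0.0268, adjusted p = 0.604), and every MI + MSC library was below every MI library, also without MI 13.

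In MI + MSC against Blood + MSC, 7 of the 10 genes rose (Postn, Sparc, Spp1, Tnc, Ccn1, Ccn2 and Lum) and none fell, where 8.23% of all tested genes were called higher and 5.85% lower. That is 951 genes higher and 676 lower, and 489 and 822 with TMM scaling. The median log2 fold change of the 10 genes was 3.01, against 0.09 over all tested genes. Postn, Tnc, Ccn1, Ccn2 and Lum averaged 1.57 to 4.48 normalized counts in Blood + MSC and passed the filter only through the heart libraries. The count, the median and the p-values of these genes are therefore a description, and nothing is read from the result of Fn1 among the 10. The 2 contrasts of heart and blood compare different libraries but share the spread pooled over all 10, and 8 genes were called without Blood 21 or without Blood 22. With Blood + MSC 23 left out, 4 of the 7 calls remained (Spp1, Tnc, Ccn2 and Lum).

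**Figure D3:**
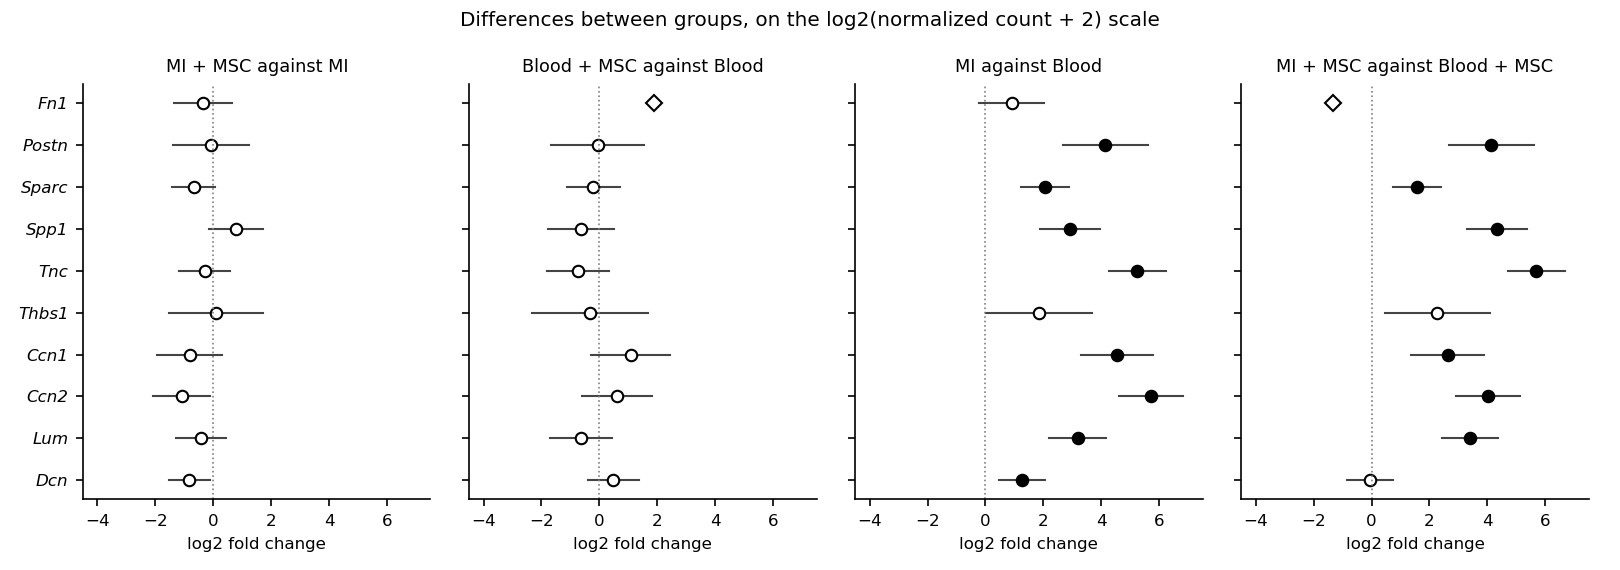
Log2 fold changes (x axis) of the 10 genes (y axis) in the 4 comparisons, with 95% intervals from limma and filled circles for called genes. Open diamonds are Fn1 in both comparisons with Blood + MSC, at 1.88 and -1.32, shown without an interval because it was chosen by its level there, and the Ccn2 value in MI against Blood depends on the pseudocount since Blood held 0 and 1 read.

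The comparison of MI + MSC with MI asked what MSC treatment changed in Ly6G+ cells of the infarct. None of the 10 genes was called by limma, edgeR, DESeq2 or voom. Limma called 0 of all 11549 genes (0%), with 377 higher and 548 lower at an unadjusted p under 0.05. Calls numbered 9 in edgeR and 68 in voom, and in DESeq2 they numbered 77 when fitted to every library and 30 when fitted to both groups alone. Of the 10 genes, 8 had a log2 fold change below 0, and the median was -0.38, against -0.01 over all tested genes. The groups did not overlap for Spp1 (higher) and for Ccn2 and Dcn (lower), where 7.05% of all tested genes had all MI + MSC libraries higher and 9.6% all lower. With TMM scaling, which moves the median of all genes up by 0.28 in this comparison, Ccn2 was -0.81, Dcn -0.55, Ccn1 -0.55, Sparc -0.40 and Spp1 1.06.

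Genes of other cardiac cells moved in the same direction as Ccn2 and Dcn, and their part in these values was not tested. All 8 endothelial genes tested had a log2 fold change below 0 (median -1.58) and none was called. Over all 9 genes of the list, the sums were 2362, 2281 and 2488 normalized counts in MI, against 587, 877 and 1070 after MSC. All 8 mural genes were also below 0 (median -0.99), with sums of 949 to 1244 in MI, against 249 to 664 in MI + MSC, as were all 8 heart muscle genes (median -1.36, sums of 7782 to 23530 against 3040 to 12244). The fibroblast list was mixed. Of its 8 tested genes, 5 were above 0 (median 0.05), and the sums over all 10 listed, in which collagens weigh most, were 967 to 1385 in MI and 999 to 1565 in MI + MSC. Its markers Pdgfra (49.0 to 54.6 in MI, 25.7 to 44.7 after MSC), Ddr2 (69.2 to 117.7, 30.4 to 64.3) and Dpt (65.9 to 67.3, 9.18 to 50.8) were lower in every MI + MSC library than in every MI library, as Ccn2 and Dcn were. These markers were named after their values were seen. Of the same list, Tcf21 also had a lower mean in MI + MSC. The means of Col1a1, Col1a2, Col3a1 (452 against 396), Mfap5, Pi16 and Cthrc1 were higher there than in MI, with overlapping ranges. No gene of these 4 lists was at 0 in any cardiac library.

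**Figure D4:**
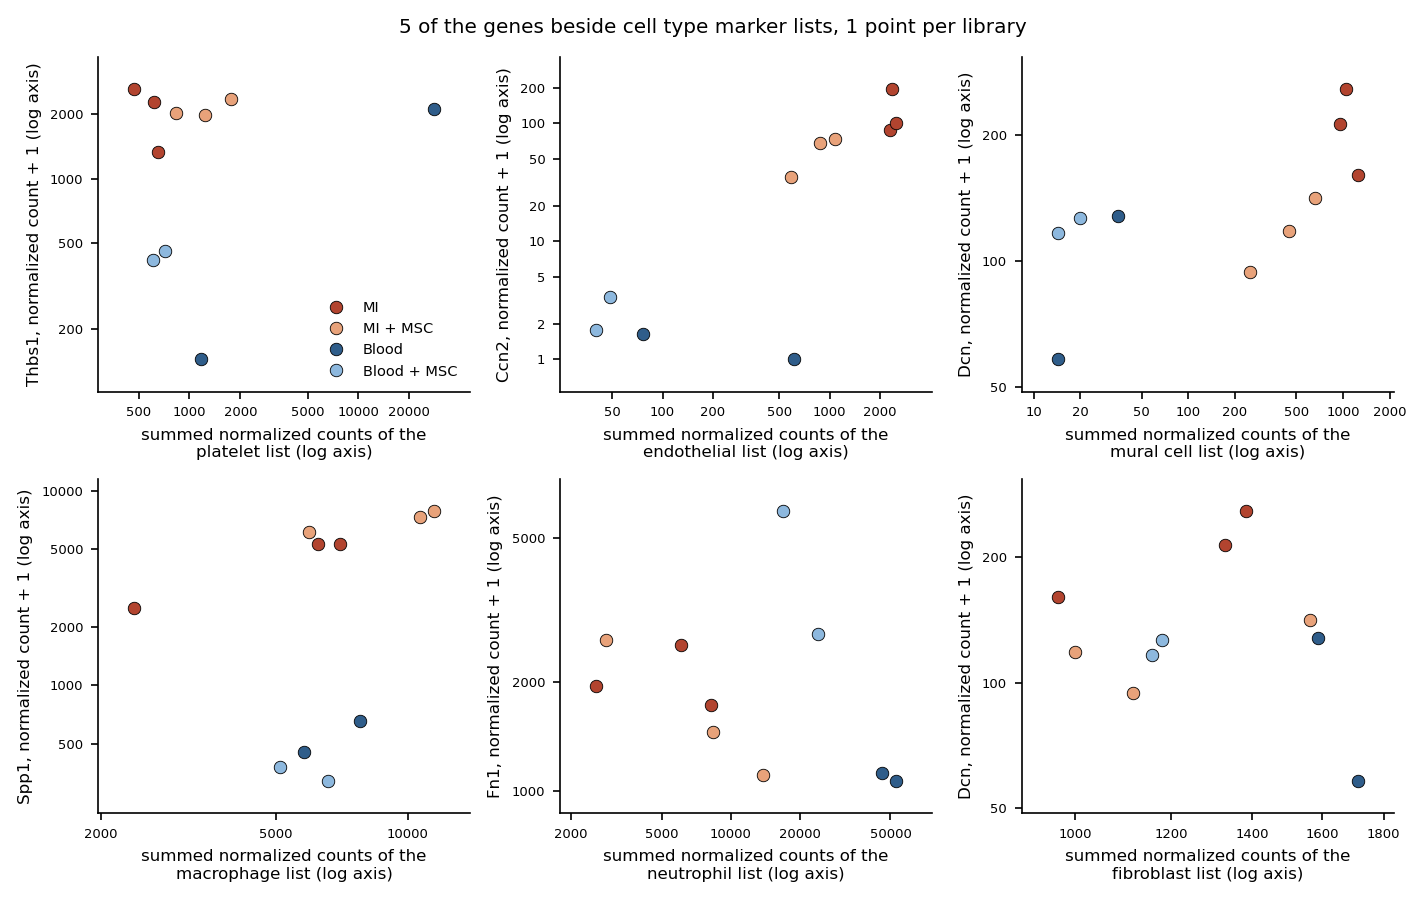
Each panel sets the normalized count + 1 of 1 gene (y axis, log scale) against the summed normalized counts of a cell type marker list (x axis, log scale), with 1 point per library, coloured by group. Ccn2 and Dcn are lower in the 3 MI + MSC libraries than in MI, and so are the endothelial and mural sums. The fibroblast sums beside Dcn overlap, at 967 to 1385 in MI and 999 to 1565 in MI + MSC. Blood + MSC 23 and 24 hold Dcn at 116 and 126 with mural sums of 14.4 and 19.9. Blood 21 lies far right on the platelet axis with Thbs1 at 2113. The 2 Blood + MSC libraries lie highest for Fn1 at neutrophil sums of 16855 and 23998.

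In Blood + MSC against Blood, limma called none of the 10 genes and none of all tested genes (0%), with 502 genes higher and 346 lower at an unadjusted p under 0.05. Without Blood 22, limma called 1113 genes higher and 393 lower. Of all genes, edgeR called 74, DESeq2 on the 2 groups 41, voom 0 and DESeq2 on all libraries 165, 4 of them higher (0.0286%), of which Fn1 was 1. Since Fn1 was chosen by this contrast, nothing is read from that call, nor from the limma result of Fn1. With 2 libraries against 2, 21% of all tested genes were entirely higher and 15.4% entirely lower. Beside Fn1, which was chosen by this contrast, the listed values were apart for Spp1 and Tnc (lower) and for Ccn1 and Ccn2 (higher), and of these 4 genes only Spp1 had more than 1 read in Blood 21. The median of the 10 genes was -0.13, against 0.11 over all tested genes, and TMM scaling moves the latter up by 0.61. Spp1 was -0.64 (95% interval -1.78 to 0.49, adjusted p = 0.806), and 0.03 with TMM scaling. Ccn1 was 1.08 (95% interval -0.28 to 2.45, adjusted p = 0.698), and Dcn was 0.49 (-0.38 to 1.36). Leaving out each library in turn gave 0.48 to 1.69 for Ccn1. Postn, Tnc, Ccn1, Ccn2 and Lum rested on at most 1 read each in Blood 21, so differences of these genes in blood were not detectable at this depth.

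The 19 receptor genes of these proteins summed to 11472 and 13827 normalized counts in Blood, against 7281 and 9438 in Blood + MSC. Their sums ran from 4110 to 7349 in MI and from 6452 to 7495 in MI + MSC, so that the heart and Blood ranges were apart. Of 17 tested, 6 rose and 6 fell in MI against Blood (median 0.78), and 4 rose and 1 fell in MI + MSC against Blood + MSC (median 0.22). The shares of all tested genes were 21.2% risen and 13.5% fallen in the first comparison, and 8.23% and 5.85% in the second. The 6 that rose in MI against Blood, named after their values were seen, were the syndecans Sdc1, Sdc2 and Sdc4 (1.80, 2.37 and 2.11), the integrin subunits Itga9 (2.86) and Itga5 (0.86), and the scavenger receptor gene Stab1 (1.65). Sdc1, Sdc4, Itga9 and Itgb5 rose in MI + MSC against Blood + MSC. The 4 with the highest mean over all 10 libraries, an order that blood-rich genes lead, all fell in MI against Blood. They were Cd44, which binds osteopontin and hyaluronan (-1.95, adjusted p = 0.0263), Cd47, which binds thrombospondin-1 (-1.50, 0.014), Itgb2, the leukocyte integrin beta subunit (-1.64, 0.00377), and Itga4, which binds fibronectin and osteopontin (-1.94, 0.0148). Of these, Itgb2 alone was called in MI + MSC against Blood + MSC (-1.61, 0.00881). No receptor was called in either MSC comparison.

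Of 22 other matricellular and small leucine-rich proteins, 13 were tested. In MI against Blood, 9 rose and none fell (median 2.56, or 1.25 with genes at their lower bounds), and 8 rose in MI + MSC against Blood + MSC (median 2.45). Over all tested genes, 21.2% rose in the first comparison (median 0.15) and 8.23% in the second (median 0.09). Sparcl1, Thbs2, Smoc2 and Ogn averaged 0 to 3.86 normalized counts in Blood and passed the filter only through the heart libraries. These counts and medians against blood are therefore a description. Sparcl1, a relative of SPARC, averaged 207 normalized counts in MI and was listed at 0 in Blood, at least 17.9-fold higher. Bgn, the proteoglycan biglycan, rose by 2.48 (adjusted p = 0.00866) and Tnxb, tenascin-X, by 3.89 (adjusted p = 0.000255). Tgfbi, which monocytes also make, averaged 883 in MI and 703 in Blood (0.40, adjusted p = 0.447). MSC in the heart left 12 of the 13 with a log2 fold change below 0 (median -0.46, against -0.01 over all tested genes) and none was called. Sparcl1 had the widest gap of the 4 genes named, at 68.4 against 207 (-1.69, adjusted p = 0.38).

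Of 15 genes of the TGF-beta pathway, all tested, 7 rose and none fell in MI against Blood (median 1.49, or 0.85 with lower bounds), and 4 rose in MI + MSC against Blood + MSC. Of all tested genes, 21.2% rose and 13.5% fell in the first comparison, and 8.23% rose and 5.85% fell in the second. Genes such as Ltbp2 and Ltbp4 averaged 0.325 and 0.65 normalized counts in Blood and passed the filter only through the heart libraries. These counts and medians against blood are therefore a description. Smad7, the inhibitory SMAD that TGF-beta induces, rose in MI against Blood by 1.49 (adjusted p = 0.0113). Tgfb1 averaged 222 normalized counts in MI and 146 in Blood (0.62, adjusted p = 0.16), and the receptor genes Tgfbr1 (0.73, 0.185) and Tgfbr2 (0.09, 0.862) were not called. None of the 15 was called in MI + MSC against MI (median -0.09).

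Among 5601 genes that averaged 50 or more normalized counts, those whose log2 values followed each gene most closely over the 10 libraries are given as a description, since the libraries share 2 tissues and differ in depth. Fat4, Prex2 and Sorbs2 were nearest to Ccn2 (Pearson r = 0.996, 0.993 and 0.993), and Sorbs2, Map3k20 and Epas1 to Ccn1 (0.986, 0.985 and 0.985). Sdc4, a syndecan that binds fibronectin, was nearest to Spp1 (0.991), followed by Lhfpl2 and Havcr2. Over the 6 cardiac libraries alone, r was 0.976 for Spp1 and Sdc4 and 0.971 for Ccn2 and Fat4. Serpinh1, the collagen chaperone, was nearest to Sparc (0.982), and Xirp2, a striated muscle gene, Tnc and the fibulin gene Fbln2 were nearest to Lum (0.984, 0.984 and 0.983), at 0.70, 0.42 and 0.89 over the cardiac libraries. Fn1 and Dcn had weaker neighbours, Sh3tc1 (0.90) and Afdn (0.901). Akap11 was nearest to Thbs1 over all libraries (0.942), but at -0.20 over the cardiac ones. The gene nearest to Postn was 4930503L19Rik (0.979), at 0.43 over the cardiac libraries, and the gene nearest to Tnc was Niban2 (0.993).

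Collagen genes of the fibroblast list were detected in blood, where 5 of the 10 members were nearly absent. Col3a1 averaged 353 normalized counts in Blood and 328 in Blood + MSC, against 396 in MI, and Col1a2 averaged 200.1 and 149, against 229.7. Neither was called in a contrast of heart and blood. Col1a1 rose by 2.08 in MI against Blood (means of 258.5 and 78.8, adjusted p = 0.0265) and by 2.86 in MI + MSC against Blood + MSC (281.6 and 37.1, adjusted p = 0.0135). Dcn averaged 92.2 in Blood and 121 in Blood + MSC. Of the other fibroblast genes, Tcf21, Mfap5 and Cthrc1 lay between 0 and 7.07 in every blood library, which is at or below 1 read in Blood 21, Ddr2 lay between 5.25 and 14.1, Dpt between 0.65 and 35.3 and Pdgfra between 6.50 and 56.5, whereas Pi16 was at 458 to 1249 in blood and 42.0 to 161 in the heart.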

How the data were processed

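RNA-seq of Ly6G+ cells gave 10 libraries, which the labels place in 4 groups, with 3 libraries in each cardiac and 2 in each blood group. The authors removed adaptors with Trimmomatic and duplicates with Picard, used STAR for mapping to GRCm39 and featureCounts for strand-specific counting, dropped mitochondrial genes and scaled with DESeq2. What they deposited is a signal, the count of a gene over its library's DESeq2 size factor, and the 281850 values of a second deposited table, named as raw, are equal to them. In every library, 100% of the values are whole multiples (within 0.01) of the value of 1 read, so reads were recovered. These columns are all mapped to samples.

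Genes averaging 10 or more normalized counts were tested with limma (3.58.1, with trend) on log2(value + 2), with 1 mean per group over all 10 libraries, as count tests cannot be the main test of normalized values. P-values were adjusted by Benjamini-Hochberg over all 11549 genes. Labels name no animals for the libraries, so p-values measure the spread between libraries. Alternatives were other pseudocounts, filters and scalings, edgeR (4.0.16), DESeq2 (1.42.0) and voom on recovered reads, a fit to the 2 groups compared, and each library left out. The limma, edgeR, DESeq2 and voom fits were checked on simulated data. DESeq2 and edgeR need counts, and DESeq2 adjusted p-values given as NA stayed NA.

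Coordinates, transcript lengths and upstream windows are from GENCODE vM39 on GRCm39, which held 27906 of the 28185 identifiers. The annotation may differ from the release the authors used. The window upstream of Ccn2 is not reported here. The 10 genes, the gene lists and the motifs were chosen with earlier results of these data known. Of each list, up to 4 genes with the highest mean over all libraries are named, and for each member the 3 genes with the highest Pearson correlation were found. Other genes (Itgb3, the receptors that rose, and the fibroblast genes below the first 4) were named after their values were seen. Floors of 3 reads and intervals of limma (95%) cover counting error and the spread between libraries, respectively. The programs ran in R 4.3.3 and in Python 3.11.15 with pandas 2.3.3, numpy 2.4.6 and, for figures, matplotlib 3.10.9.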

Additional observations from a re-analysis of the deposited data

Results flagged for a closer look

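Spp1 and Ccn2 had MSC differences of opposite sign in heart and blood, and their listed values did not overlap between the groups in either tissue. Of all tested genes, 7.05% had all MI + MSC libraries higher than MI and 9.6% all lower. In Blood + MSC against Blood, 21% were entirely higher and 15.4% entirely lower. The share of all genes apart in both tissues with opposite sign was not counted, so nothing particular to these genes is read from it. For Spp1, the difference in heart minus that in blood was 1.42 on the log2 scale (limma interaction, SE 0.67, unadjusted p = 0.0563, adjusted p = 0.63): all 3 MI + MSC libraries were above the MI libraries and both Blood + MSC libraries below the Blood libraries. With TMM scaling the blood difference was 0.03. For Ccn2 it was -1.69 (SE 0.71, unadjusted p = 0.0355, adjusted p = 0.63), lower in the heart and higher in blood, where Blood held 0 and 1 read and Blood + MSC 3 and 14, so that the blood value depends on the pseudocount. The floor of Blood 21, 21.2 normalized counts, is above both Blood + MSC values of Ccn2 (0.788 and 2.36), so its direction in blood is not resolved. Neither difference between the tissues passed the adjusted threshold, nor did that of the other members, Fn1 being left out as chosen by its level in Blood + MSC. Single outlying values were not tested for within groups of 2 or 3 libraries.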

How the results depend on the processing

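No paired analysis was possible because the groups share no library numbers. In MI + MSC against MI, none of the 10 genes was called under any alternative. In Blood + MSC against Blood, DESeq2 on all libraries and on the 2 groups called 1 gene, Fn1. Since Fn1 was chosen by this contrast, nothing is read from these calls. No other alternative that kept all libraries called any of the 10 genes. Without Blood 22, which leaves 1 Blood library, the log2 fold change of Thbs1 was -2.27. In MI against Blood, voom called 5 of the 10 genes, and the other alternatives 7 to 10. In MI + MSC against Blood + MSC, leaving out a library gave 4 (without Blood + MSC 23) to 8, and the others 6 to 9, from whose calls of Fn1 nothing is read. Over all genes, calls numbered 2452 higher and 1556 lower in MI against Blood (alternatives 587 to 3991 and 609 to 2282) and 951 and 676 in MI + MSC against Blood + MSC (227, without Blood + MSC 23, to 3975, in voom, and 39 to 3580). No interaction was called among the 10 genes under any alternative run, and DESeq2 was not run on it. Where a log2 fold change turned in sign or moved beyond the spread, the cause was not tested.

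With TMM scaling, the log2 fold change in Blood + MSC against Blood was 2.55 for Fn1, and it turned to 0.20 for Postn, 0.46 for Sparc, 0.026 for Spp1 and 0.34 for Thbs1. Library size scaling turned it to 0.078 for Postn and 0.088 for Sparc, edgeR to 0.071 for Sparc and a pseudocount of 1 to 0.13 for Postn. In MI + MSC against MI, Postn turned to 0.20 with TMM scaling, 0.097 in edgeR, 0.025 and 0.22 in DESeq2 on all libraries and on the 2 groups, and 0.0085 in voom. Tnc turned to 0.067 in DESeq2 on the 2 groups and Thbs1 to -0.039 with library size scaling. In MI + MSC against Blood + MSC, Dcn turned to 0.029 with library size scaling.

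Leaving out each library in turn gave, in MI + MSC against MI, -0.43 to 0.24 for Postn, -0.70 to 0.082 for Tnc and -0.20 to 0.29 for Thbs1. In Blood + MSC against Blood it gave -1.33 to 1.22 for Postn, -0.65 to 0.23 for Sparc, -2.27 to 1.60 for Thbs1 and -0.077 to 1.05 for Dcn. Thbs1 ran from -0.085 to 3.78 in MI against Blood, and Dcn from -0.20 to 0.089 in MI + MSC against Blood + MSC.

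In Blood 21 and MI 13, low genes such as Ccn1, Ccn2, Lum and Postn rest on 0 to 1 and on 7 to 23 reads, respectively.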
